A study of Homo sapiens with 6 samples.

Results

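The 8 genes described here encode CACYBP, SIAH1, SIAH2, SKP1, TBL1X and TBL1XR1 of the SIAH ubiquitin ligase complex, together with S100A6 and SUGT1. They were chosen by name, and every probe of the deposited array table that carried one of these names, or the older name SKP1A for SKP1, was taken. This gave 13 of the 48701 probes of the table. The table was made from HEK293 cells, an established line from human embryonic kidney, transfected with a plasmid for human SNRK fused to green fluorescent protein (SNRK-pEGFPN3, here SNRK) or with the parent plasmid for green fluorescent protein alone (pEGFPN3, here GFP). Total RNA was taken 48 hours after transfection in both groups and read on Illumina bead arrays, 3 for each group. The fraction of cells that took up a plasmid is not given in the sources used here, and both groups carried the fluorescent protein and the transfection reagent. The labels number the arrays of each group and do not tell separate cultures from repeats of 1 culture, so p-values here reflect the scatter among these arrays, which could be technical in origin.

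Ubiquitin ligases of the SIAH family recognise a substrate through a C-terminal domain and pass ubiquitin to it through a RING domain, which marks it for the proteasome. CACYBP, also called Siah-interacting protein, is a scaffold that links SIAH1 to SKP1, and SKP1 brings in a substrate receptor. Through the F-box-like proteins TBL1X and TBL1XR1, this assembly can direct breakdown of beta-catenin in response to p53, by a route that does not need the phosphorylation used by the classical destruction complex. CACYBP was also found as a binding partner of the calcium-binding protein S100A6 and shares a structural domain with SUGT1, a co-chaperone of HSP90.

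Intensities are given as deposited, on a linear scale, and log2 levels are those after background correction and quantile normalization. The detection p-value sets the signal of a probe against the negative controls of its array, and a probe was tested if all 3 arrays of 1 or both groups had a value under 0.01. It is said to have risen or fallen if the limma adjusted p was under 0.05. Errors of log2 levels are SD over 3 arrays, and log2 changes are SNRK minus GFP with the standard error (SE) of the fit or a 95% confidence interval. The median intensity of the arrays was 93.8 to 102, and 15133 to 16190 probes were detected on each. The correlation of log2 levels was at least 0.990 within a group and 0.976 to 0.991 across groups. Of 7 HEK293 marker genes, 6 were detected and PAX2 was not, while of the markers of blood, fibroblast and muscle cells 0 of 5, 0 of 5 and 0 of 4 were detected. The liver marker ALB and the endothelial marker PECAM1 had 1 tested probe each, at intensities of 109 to 130 over all arrays. The single SNRK probe rose 1.35-fold (log2 change 0.44, SE 0.09, adjusted p = 0.0219), and its place relative to the SNRK sequence of the plasmid was not examined.

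Of the 8 genes, CACYBP rose in SNRK cells, by 1.66-fold at 1 of its 2 tested probes, and no other member passed the limma test with all 6 arrays in the fit, although TBL1XR1 did when SNRK 3 was left out. The 13 probes left 9 that were tested, from 7 genes, since the only S100A6 probe and a further probe each of CACYBP, SIAH1 and SKP1 did not pass the detection filter. Of the 9, 1 rose, against 6.88% of all 14964 tested probes, and 0 fell, against 6.06%. A count of 1 among 9 is close to that background. At an unadjusted p under 0.05 there were 2 of the 9, against 31.1% of all tested probes. On the log2 scale, the groups did not overlap at 5 of the 9 probes, against 36.4% of all tested probes, with SNRK higher at 4 and lower at 1. Both counts include SIAH1 ILMN_1661161, which was detected on SNRK arrays alone and so passed the filter only through the group where it is high, which bears on its separation and its direction. Of the 5, the SKP1, TBL1X and TBL1XR1 probes overlapped on the deposited intensities. TBL1XR1 was apart by little, with SNRK 3 at a log2 level of 6.811 and GFP 3 at 6.806. The SIAH2 probe was apart on the deposited intensities alone. By the brightest tested probe of each gene, the median log2 change of the 7 genes was 0.08, beside -0.0022 over 10425 genes.

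**Figure D1:**
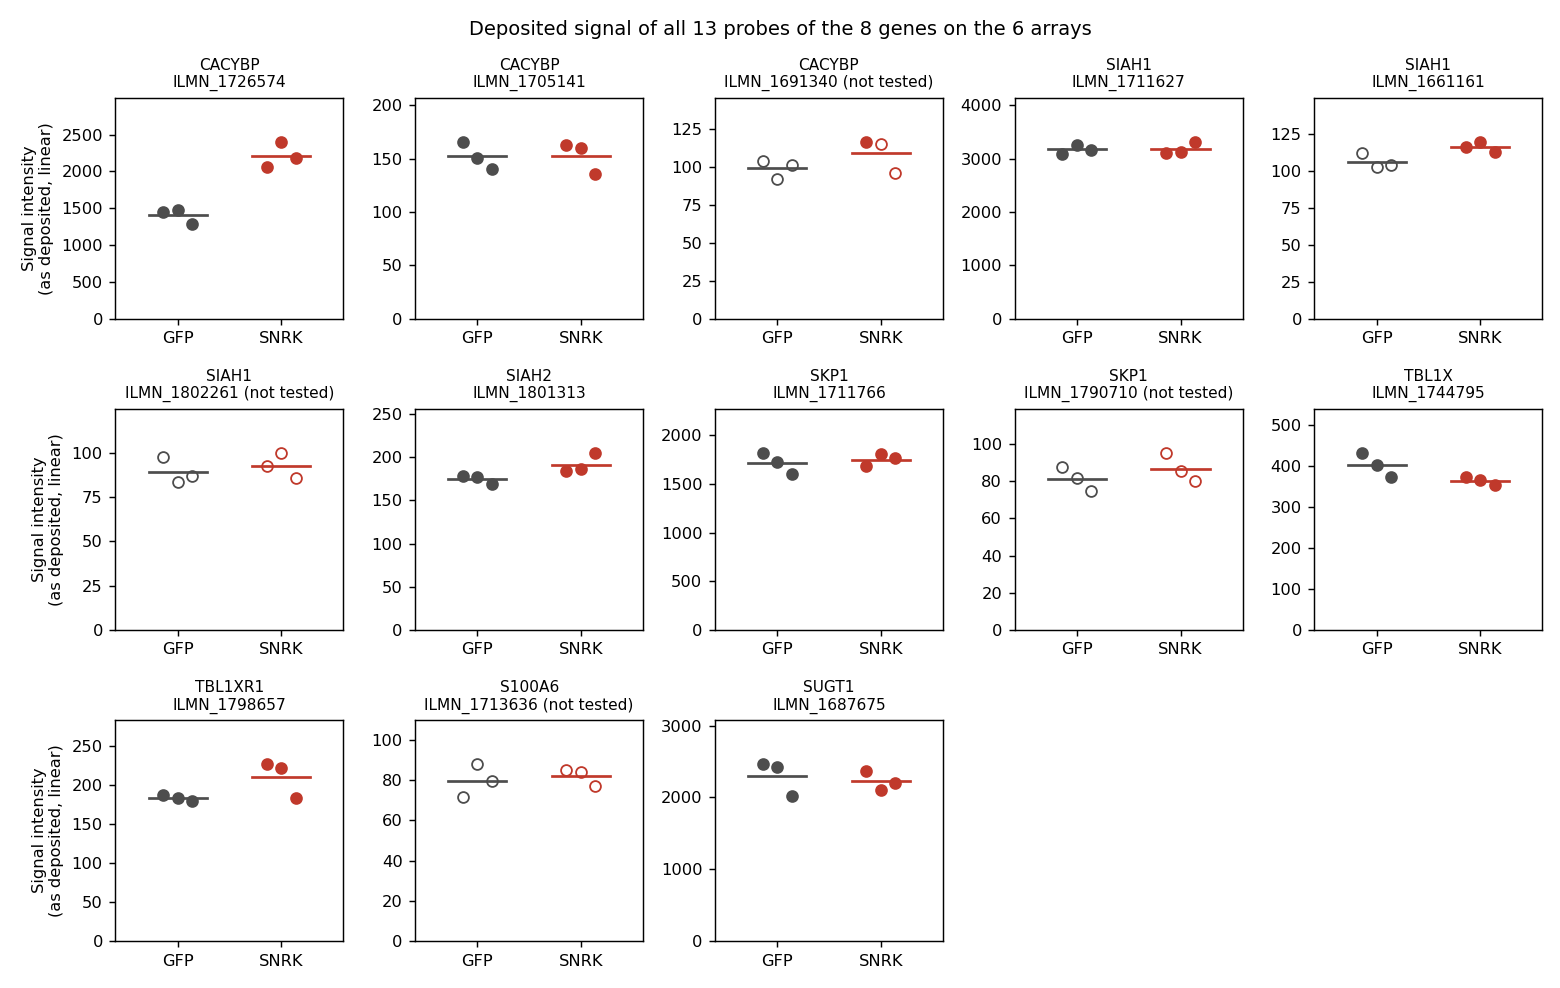
Signal intensity as deposited (linear axis from 0, scaled separately in each panel) of all 13 probes of the 8 genes on the 3 GFP and 3 SNRK arrays. Points are single arrays, filled where the probe was detected, and bars are group means. Only the first panel, CACYBP probe ILMN_1726574, shows SNRK arrays (2055 to 2397) far above GFP arrays (1287 to 1472), and the panels marked as not tested stay near the array background.

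CACYBP is represented by 3 probes, which did not behave alike. At probe ILMN_1726574, GFP 1, 2 and 3 gave intensities of 1449, 1472 and 1287, whereas SNRK 1, 2 and 3 gave 2055, 2397 and 2179. All 3 SNRK arrays lay above all 3 GFP arrays, with a gap larger than the spread within either group. The log2 level was 10.35 ± 0.04 in GFP and 11.09 ± 0.13 in SNRK cells, a log2 change of 0.73 (SE 0.09, interval 0.52 to 0.94, adjusted p = 0.00454). As a fold this is 1.66, with an interval of 1.44 to 1.92. Among all 14964 tested probes it was the 206th largest rise and had the 121st smallest p-value, and 96.9% of tested probes changed by less in either direction. The probe itself is bright, since 88.5% of tested probes had a lower mean level.

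The second tested CACYBP probe, ILMN_1705141, read 165, 150.2 and 140.2 in GFP and 163, 159 and 136 in SNRK cells. The groups overlapped, and GFP 3 and SNRK 3 were the lowest of their groups. It was detected on all 6 arrays but is dim, with only 23.9% of tested probes below it. Its log2 change was -0.12 (SE 0.12, interval -0.40 to 0.17, adjusted p = 0.558), an interval that does not reach the 0.52 at the lower end of the interval of the first probe. The remaining CACYBP probe, ILMN_1691340, read 104, 91.8 and 101 in GFP and 116, 115 and 96.1 in SNRK cells, was detected on 1 of 6 arrays and was not tested. Its signal is near the array median, so a fall or a small rise of the transcript it targets could not be seen at this signal.

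The difference between both tested CACYBP probes was tested directly. The log2 level of ILMN_1726574 minus that of ILMN_1705141 was 3.88, 4.09 and 4.14 in the GFP replicates and 4.64, 4.99 and 5.04 in the SNRK replicates, in the order of their numbers. All SNRK arrays lay above all GFP arrays. The brighter probe changed by 0.85 more than the dimmer one (SE 0.15, interval 0.51 to 1.19, limma adjusted p = 0.0145 over 1798 probe pairs of 1448 genes, of which 4.39% passed). In the exact permutation test, two-sided, the p was 0.1, the smallest that 3 against 3 arrays can give. The call was lost without GFP 1 (difference 0.77, adjusted p = 0.0758) and without GFP 2 (0.88, adjusted p = 0.0731). Where each probe lies in the CACYBP transcripts was not examined, so which transcripts each one reads is not known here.

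**Figure D2:**
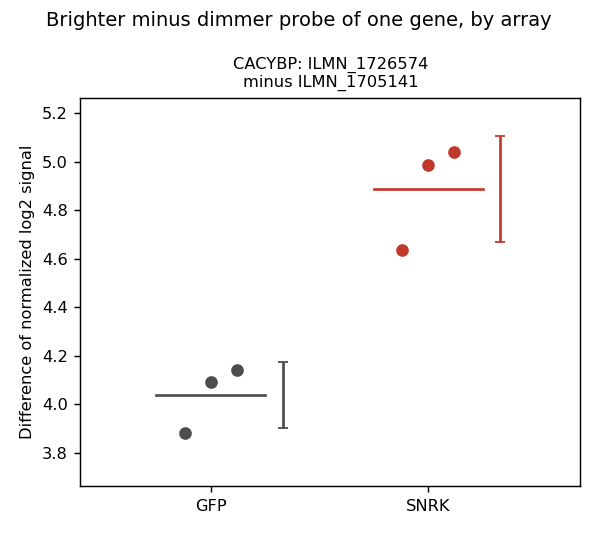
Normalized log2 signal of the brighter minus the dimmer tested probe of CACYBP on each array. Points are arrays, horizontal bars are group means and error bars are SD over 3 arrays. The CACYBP difference is 3.88 to 4.14 on the GFP arrays and 4.64 to 5.04 on the SNRK arrays, and the groups do not overlap.

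The upstream sequence of CACYBP is shown because it is the gene of the set that rose. The RefSeq promoter table for GRCh38.p14 held windows for all 8 genes, 12 in all, and 2 of these belong to CACYBP, with starts 512 bases apart on the plus strand of chromosome 1. The 250 bases before the upstream start, chr1:174999185-174999434, are given 5′ to 3′, with the match to TGACG, the half-site of ATF/CREB factors, in capitals.
CACYBP upstream window: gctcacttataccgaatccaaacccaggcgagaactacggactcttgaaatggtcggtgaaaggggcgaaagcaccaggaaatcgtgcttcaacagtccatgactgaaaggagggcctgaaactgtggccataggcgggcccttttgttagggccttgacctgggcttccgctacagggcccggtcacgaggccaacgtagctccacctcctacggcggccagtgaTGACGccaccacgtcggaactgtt
The match lies 24 to 20 bases before the start. Searched on both strands, TGACG occurred in 21.2% of the 35116 windows of the same length in the table, and the windows of SIAH2, SKP1 and S100A6 held it too. The heat shock elements GAANNTTC and TTCNNGAA were in neither CACYBP window, and 5.78% and 6.62% of all windows held them. The SP1 box GGGCGG had 3 matches in the second CACYBP window and 0 in the one shown, against 42.6% of all windows with at least 1. These are matches of letters only, and binding was not measured.

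The ligase genes themselves did not pass the test. SIAH1, the RING ligase bound by CACYBP, read 3088, 3262 and 3167 in GFP and 3095, 3124 and 3309 in SNRK cells at its bright probe ILMN_1711627. The groups overlapped almost completely. The log2 change was 0.03 (SE 0.08, interval -0.16 to 0.23, adjusted p = 0.814), so a rise of the size seen at the brighter CACYBP probe lies outside the interval. The probe is among the brighter ones, with 94.1% of tested probes below it. A second SIAH1 probe, ILMN_1661161, read 112, 103 and 104 in GFP and 116, 119.7 and 113 in SNRK cells. Its detection p-value was under 0.01 on all 3 SNRK arrays and on 0 of 3 GFP arrays, where it was 0.0251, 0.0540 and 0.0392, so the GFP level is a bound. The SNRK level was 1.02-fold that bound, a ratio without an error. The probe passed the filter only through the SNRK arrays, so no rise is read from this ratio. The fitted log2 change of 0.21 did not pass (SE 0.08, adjusted p = 0.120) and was 0.03 on the authors' processed values. Only 0.354% of tested probes were dimmer. The difference between the changes of both SIAH1 probes is not given, because of that bound. The remaining SIAH1 probe, ILMN_1802261, read 83.4 to 97.5 in GFP and 85.9 to 99.7 in SNRK cells, was detected on 0 of 6 arrays and was not tested.

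SIAH2, the close relative of SIAH1 that targets the oxygen-sensing prolyl hydroxylases, read 178, 177 and 169 in GFP and 184, 187 and 205 in SNRK cells at its only probe. The deposited intensities of the SNRK arrays were all higher, but after normalization the groups overlapped. The log2 levels were 6.68, 6.72 and 6.67 in GFP and 6.69, 6.67 and 7.07 in SNRK cells, so SNRK 3 alone stood above the others. The log2 change was 0.12 (SE 0.12, interval -0.15 to 0.39, adjusted p = 0.529), and without SNRK 3 it was -0.01 (adjusted p = 0.935), against 0.18 without SNRK 1 and 0.19 without SNRK 2. It was 0.07 without background correction and 0.05 on the authors' processed values.

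SKP1, the adaptor that joins CACYBP to the substrate receptor and is also a core subunit of SCF ligases, read 1816, 1721 and 1602 in GFP and 1684, 1802 and 1766 in SNRK cells at probe ILMN_1711766. The intensities overlapped, whereas the log2 levels after normalization were all higher in SNRK cells by a small margin (10.65 ± 0.04 in GFP and 10.74 ± 0.05 in SNRK cells). The log2 change of 0.08 did not pass (SE 0.08, interval -0.10 to 0.26, adjusted p = 0.520), and it was 0.02 with median scaling and 0.05 without SNRK 2. The other SKP1 probe, ILMN_1790710, read 74.8 to 87.7 in GFP and 80.0 to 95.1 in SNRK cells and was detected on 0 of 6 arrays.

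**Figure D3:**
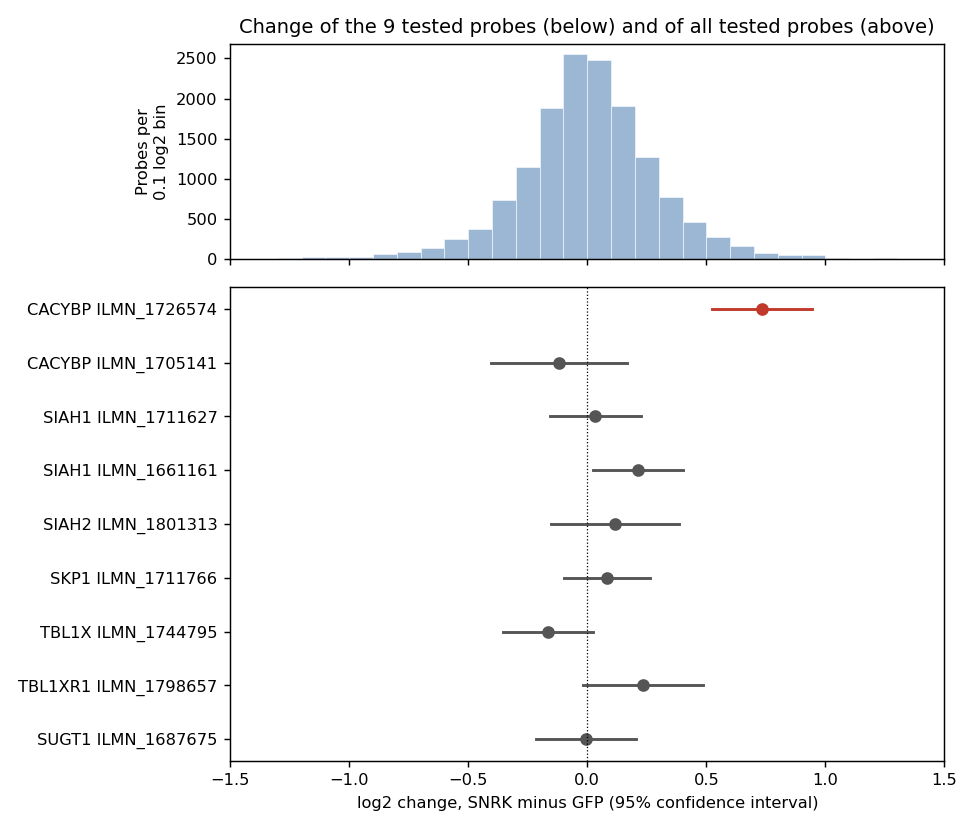
Below, the log2 change (SNRK minus GFP, horizontal axis) of the 9 tested probes with 95% confidence intervals, red where the adjusted p was under 0.05. Above, the number of all 14964 tested probes in each bin of the same axis, of which 41 with changes beyond 1.5 in either direction are not drawn. CACYBP probe ILMN_1726574, at 0.73, lies apart from the other 8, which lie between -0.17 and 0.23. SIAH1 ILMN_1661161, drawn at 0.21, was undetected on every GFP array, so its point and interval are not a measured change.

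The substrate receptors TBL1X and TBL1XR1 had estimates of opposite sign, and neither passed the test. Both proteins carry an F-box-like region and WD40 repeats, and both are also subunits of nuclear receptor corepressor (NCoR) complexes. TBL1XR1 read 187, 183 and 179.7 in GFP and 227, 222 and 183 in SNRK cells. SNRK 1 and SNRK 2 were high, and SNRK 3 was at the level of the GFP arrays. The log2 level was 6.80 ± 0.01 in GFP, the smallest spread among the tested probes of the set, and 7.03 ± 0.20 in SNRK cells. The log2 change was 0.23 (SE 0.11, interval -0.02 to 0.49, adjusted p = 0.187), and without SNRK 3 it was 0.35 and passed (adjusted p = 0.0398), whereas without SNRK 1 it was 0.15 (adjusted p = 0.436). It was 0.15 without background correction and 0.09 on the authors' processed values.

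TBL1X read 432, 403 and 373 in GFP and 373, 368 and 355 in SNRK cells, so the lowest GFP array and the highest SNRK array were level. After normalization all SNRK arrays were lower, at log2 levels of 8.23, 8.16 and 8.17 against 8.44, 8.33 and 8.28. The log2 change of -0.17 did not pass (SE 0.08, interval -0.35 to 0.02, adjusted p = 0.211) and was -0.10 on the authors' processed values. The difference between the changes of TBL1X and TBL1XR1 was not tested.

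SUGT1, which shares a structural domain with CACYBP, did not pass. Its probe read 2459.6, 2427 and 2019 in GFP and 2369.8, 2105 and 2194 in SNRK cells. GFP 3 was the lowest of the 6 arrays, and the groups overlapped. The log2 change was -0.0052 (SE 0.09, interval -0.21 to 0.20, adjusted p = 0.976). S100A6, also called calcyclin, read 71.6, 87.9 and 79.5 in GFP and 85.2, 84.1 and 77.0 in SNRK cells. This lies below the array medians, and the probe was not above background on any array, so no level or change can be given for S100A6 from it. Whether the transcript was absent or the single probe does not read it was not tested.

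By the likeness of their profiles over the 6 arrays, the probes nearest to CACYBP ILMN_1726574 were those of BMF, FOXM1, SH3GLB2, TWIST1 and SCRIB. Likeness was the root mean square difference of log2 levels after the GFP mean of each probe was subtracted, over 12074 probes of other named genes. It was 0.05 for BMF, which codes for a pro-apoptotic BCL2 family protein, 0.07 for the cell cycle transcription factor FOXM1 and 0.08 for SH3GLB2, an endophilin gene, for the transcription factor gene TWIST1 and for SCRIB, a cell polarity scaffold gene. Their fitted log2 changes ran from 0.66 for SCRIB to 0.77 for FOXM1, and in all 5, as in CACYBP, SNRK 2 had the highest intensity. SCRIB read 107, 106 and 103 in GFP and 129, 139 and 121 in SNRK cells. On GFP 1 and GFP 3 this is below SIAH1 ILMN_1661161, which was undetected there. SCRIB thus passed the filter only through the SNRK arrays, and its 0.66 is not a measured fold. BMF read 133, 129 and 125 in GFP and 163, 187 and 164 in SNRK cells. This is a description of these arrays, and a profile chosen for likeness to a called probe is itself likely to be called and to peak on the same array.

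Other genes of the same complexes were described from 6 lists with 79 genes in all, of which 60 had a tested probe. By the brightest tested probe, 4 of the 60 rose and 2 fell, against 7.41% and 5.75% of 10425 genes. Their median log2 change was 0.0031, beside -0.0022 over those genes. Without GFP 1 and without GFP 2 the counts were 2 risen and 0 fallen. They were 4 and 1 without GFP 3, 3 and 0 without SNRK 1, 4 and 0 without SNRK 2 and 7 and 2 without SNRK 3.

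No tested gene around the ligase or of its SCF relatives passed. At an unadjusted p under 0.05 in limma there were 1 in the first of these lists and 0 in the second, where 31.6% of all genes had such a p. Of 8 SIAH partners, ubiquitin-conjugating enzymes and beta-catenin genes, 6 were tested and 0 passed, with a median log2 change of -0.07. CTNNB1, the beta-catenin gene, had 0.26 at its brightest probe and 0.15 at its other, neither passing (adjusted p = 0.315 and 0.572), and the conjugating enzyme genes UBE2D3 and UBE2E1 had -0.24 and -0.14 (adjusted p = 0.0800 and 0.290). A second UBE2D3 probe had the opposite sign, at 0.12 (adjusted p = 0.581). APC, the scaffold that also takes part in SIAH1-directed beta-catenin breakdown, had no tested probe. Of 13 SCF genes, 12 were tested and 0 passed, with a median of -0.0033. The F-box genes CCNF and SKP2 had -0.14 and 0.08 (adjusted p = 0.458 and 0.547), and RBX1, the RING subunit gene of SCF ligases, had -0.10 (adjusted p = 0.548). The other tested SKP2 probes had 0.36 and 0.04 (adjusted p = 0.0691 and 0.819). Of 21 genes for S100 proteins and annexins, 9 were tested and 0 passed, 0 of them with an unadjusted p under 0.05, with a median of 0.02. ANXA11, which codes for an annexin that binds S100A6, had 0.19 (adjusted p = 0.199), S100A16 had 0.16 (adjusted p = 0.253) and S100A11 had -0.24 (adjusted p = 0.412). The other 12 genes of that list, most of them S100 genes, had no tested probe.

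Of 14 genes for SIAH substrates, 12 were tested and 1 rose, with a median log2 change of 0.05. Over all 10425 genes, 7.41% rose. In limma, 5 of the 12 had an unadjusted p under 0.05, against 31.6% of all genes. TRAF2, a signalling adaptor of the TNF receptors that SIAH2 degrades, read 250.2, 239 and 229 in GFP and 315, 338 and 343 in SNRK cells. The groups were well apart, and the rise was 1.54-fold (log2 change 0.62, SE 0.09, adjusted p = 0.00635), with a log2 change of 0.33 on the authors' processed values (adjusted p = 0.00634). NUMB, an inhibitor of Notch, and EGLN1, a prolyl hydroxylase of the oxygen response, each had 0.30 and did not pass (adjusted p = 0.0512 and 0.0849). PML, the gene of the nuclear body protein, had 0.52 with detection on 2 of 3 GFP arrays, and the kinesin gene KIF22 had 0.27, neither passing (adjusted p = 0.0756 and 0.107). KLF10, a zinc finger gene, did not pass at its brightest probe (log2 change 0.08, adjusted p = 0.633), had 0.36 at the second (adjusted p = 0.0683) and rose by 0.46 at the third (adjusted p = 0.0185), an example chosen after its values were seen.

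Of 9 genes of the NCoR corepressor side of TBL1X and TBL1XR1, 8 were tested, 1 rose and 1 fell, with a median log2 change of 0.01. Over all 10425 genes, 7.41% rose and 5.75% fell. In limma, 3 of the 8 had an unadjusted p under 0.05, against 31.6% of all genes. THRA, a thyroid hormone receptor gene, read 146, 132 and 124 in GFP and 163, 224 and 169 in SNRK cells, and SNRK 2 stood highest. It rose by 0.75 (adjusted p = 0.0344) at its brightest probe and had -0.18 at its other (adjusted p = 0.185). NR2F1, an orphan nuclear receptor gene, read 1005, 1081 and 902 in GFP and 794, 647 and 787 in SNRK cells, so the groups did not overlap, and it fell by 0.43 (adjusted p = 0.0392). CORO2A, a coronin gene whose product is part of the complex, had 0.26 and did not pass (adjusted p = 0.112). The corepressor gene NCOR1 had 0.02 (adjusted p = 0.879) and the deacetylase gene HDAC3 -0.0012 (adjusted p = 0.994). NR2F1 lost its call in 5 of the 6 fits with 1 array left out (highest adjusted p 0.142) and THRA in 3 (0.112). The log2 change of THRA was 0.39 without background correction, 0.45 with the maximum likelihood background model and 0.22 on the authors' processed values, the last without passing (adjusted p = 0.0633).

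Of 15 genes of SUGT1 and the HSP90 co-chaperones, 14 were tested, 2 rose and 1 fell, with a median log2 change of 0.04. Over all 10425 genes, 7.41% rose and 5.75% fell. In limma, 6 of the 14 had an unadjusted p under 0.05, against 31.6% of all genes. UNC45A, a myosin chaperone gene that acts with HSP90, read 746, 704 and 766 in GFP and 1169, 1241 and 1196 in SNRK cells, the clearest separation in the list. It rose by 0.80 (SE 0.09, adjusted p = 0.00329) at its brightest probe and had 0.25 at its other (adjusted p = 0.447). HSF1, the heat shock transcription factor gene, read 143, 143 and 147 in GFP and 210.4, 238 and 176 in SNRK cells and rose by 0.82 (adjusted p = 0.0125). Without GFP 1, GFP 2 or SNRK 1 HSF1 lost its call (highest adjusted p 0.0607), and its log2 change was 0.46 without background correction, 0.53 with the maximum likelihood background model and 0.28 on the authors' processed values. FKBP4, an HSP90 co-chaperone gene of steroid receptors, read 2177, 1909 and 1398 in GFP and 1116, 977 and 1370.4 in SNRK cells and fell by 0.64 (adjusted p = 0.0389), a call lost in 4 of 6 fits with 1 array left out (highest adjusted p 0.136). The HSP90 genes HSP90AA1 and HSP90AB1 had 0.24 and 0.22 and did not pass (adjusted p = 0.161 and 0.105), and a second HSP90AA1 probe had 0.31 (adjusted p = 0.110). AHSA1, which codes for an activator of the HSP90 ATPase, had 0.24, and the NOD-like receptor gene NLRX1 had -0.40, neither passing (adjusted p = 0.158 and 0.0690). A second NLRX1 probe had the opposite sign, at 0.34 (adjusted p = 0.155).

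**Figure D4:**
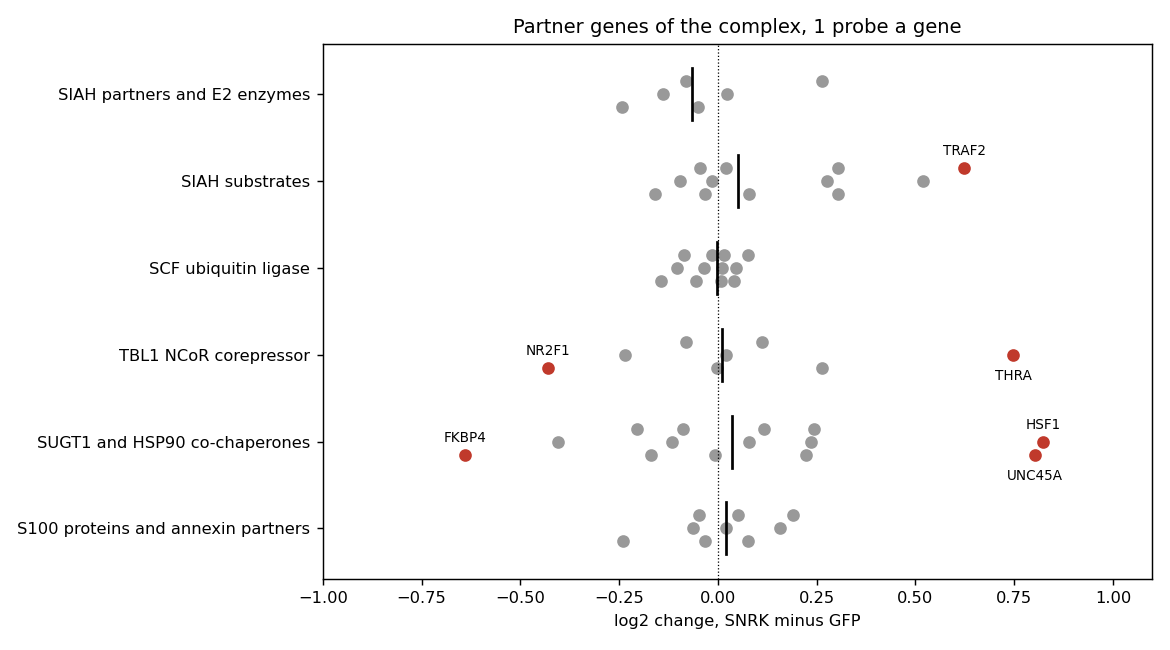
Log2 change (SNRK minus GFP, horizontal axis) of the tested genes of the 6 partner lists, 1 brightest probe a gene. Red points with names had an adjusted p under 0.05, grey points did not, and black bars are list medians. Named genes lie in 3 of the 6 lists, from -0.64 for FKBP4 to 0.82 for HSF1, and the list medians lie between -0.07 and 0.05.

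The rise at CACYBP ILMN_1726574 kept its direction and its call in every alternative tried. Its log2 change ran from 0.66 to 0.78 over 14 alternatives, and the adjusted p from 0.000179 to 0.0283. On the authors' processed values, this probe read 1205, 1226 and 1171 in GFP and 1821, 2098 and 1852 in SNRK cells, with a log2 change of 0.68 (adjusted p = 0.00152). The second CACYBP probe had a log2 change of -0.20 to -0.0093 over the same alternatives and passed in 0 of 14.

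**Figure D5:**
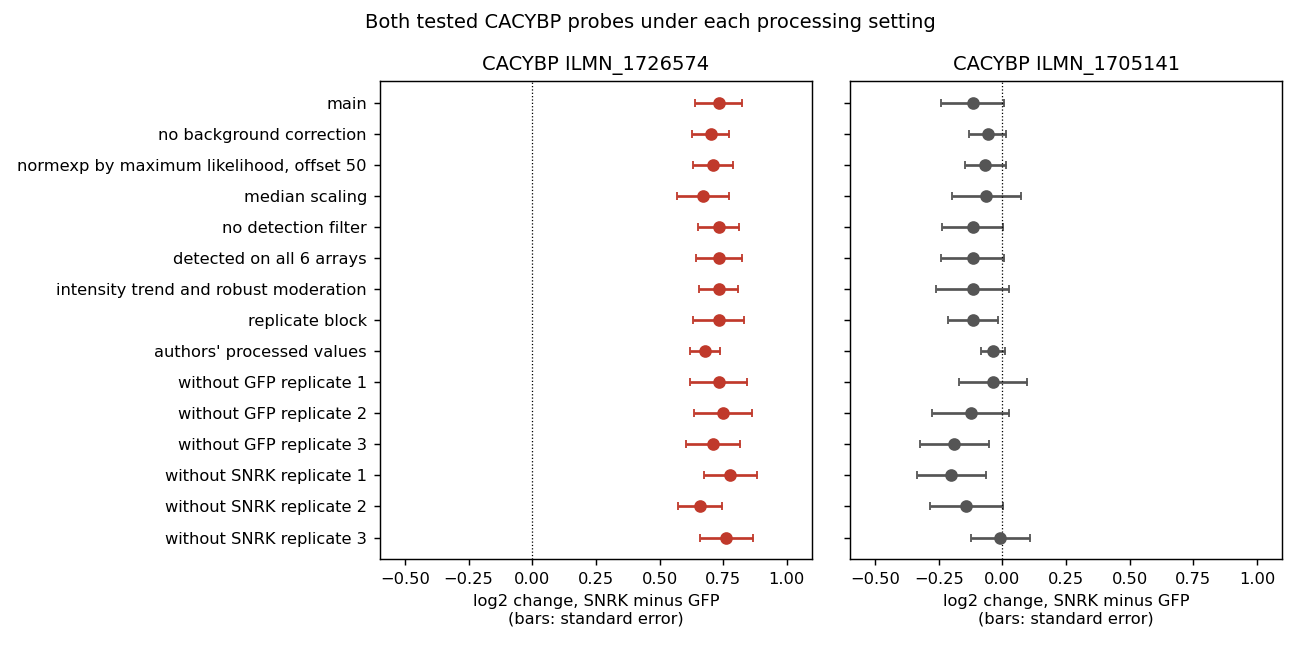
Log2 change (SNRK minus GFP, horizontal axis) of both tested CACYBP probes under the main processing (top) and 14 alternatives, with standard errors as bars and red for an adjusted p under 0.05. ILMN_1726574 stays between 0.66 and 0.78, and ILMN_1705141 between -0.20 and -0.0093.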

How the data were processed

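Per the labels' protocols, RNA was isolated with the RNeasy kit and biotinylated cRNA was made with the MessageAmp kit for Illumina arrays. The authors deposited a table of intensity and detection p-value columns, 1 of each per array, linear and not normalized by its values, and a second table of intensity values whose medians are all 170. The submitters' processing notes name lumi, but the sources used here do not give its steps. The second table is linear and in the order of the first (rank correlation at least 0.9997 with the same array). Its background handling stays unknown, and its lowest values were 138 to 144. The undetected SKP1 probe ILMN_1790710 read 155 to 165 in it, against 74.8 to 95.1 as deposited. A floor this high makes log2 changes of dim probes smaller. For such probes, its log2 changes and those of the main fit are therefore on unlike scales. Intensities were corrected with neqc of limma 3.58.1 in R 4.3.3 (controls inferred from detection p-values, offset 16), quantile normalized and log2 transformed. Probes with detection p under 0.01 on all arrays of a group were kept (14964 of 48701). A group-only linear model was fitted over the 6 arrays, with a two-sided moderated test and Benjamini-Hochberg adjustment over all kept probes. Differences between probes of one gene were fitted likewise over all pairs. Where a kept probe was undetected on every array of a group, the fold is a lower bound, with each dim array set to its lowest signal among detected probes unless the probe read higher. All 13 probes matched a gene of the RefSeq table by symbol or older symbol. Probe sequences were not used here.

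The genes and lists were chosen with earlier results of these data known, and some genes of the partner lists are not reported here and are not counted in them. All members were named, then SNRK, every called gene of each partner list or else the 3 with the smallest p, and the 5 probes most like each called member. In lists with a called gene, those with an unadjusted p under 0.05, and KLF10, NCOR1, HDAC3 and HSP90AA1, were named after their values were seen. Same-numbered arrays did not deviate together (correlations -0.06, -0.13 and -0.30), so the numbers were not taken as pairs. The number of arrays limits the precision.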

Additional observations from a re-analysis of the deposited data

How the results depend on the processing

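Background correction was left out or fitted by maximum likelihood (offset 50), and the other alternatives were median scaling, no detection filter, detection on all 6 arrays, trend with robust moderation, the replicate number as a block, the authors' processed values, and each array left out. The call at the brighter CACYBP probe held in all 14. With 1 array left out, its log2 change was 0.66 to 0.78, the CACYBP probe difference 0.77 to 0.98, and the risen probes of the 8 genes 1 to 2. Over all tested probes these fits gave 124 to 1399 risen and 172 to 1263 fallen, and in the partner lists 2 to 7 and 0 to 2. The counts were lowest without GFP 1 (152 and 192), GFP 2 (124 and 172) and SNRK 1 (182 and 198), and were 545 and 554 without SNRK 2. Without the detection filter, 349 probes rose and 320 fell of 48701, with 3 and 0 partner genes. The replicate block, for numbers that share only a label, gave 374 and 357, with 3 and 0 partner genes, and changed no call among the 8 genes. Of the partner genes, 7 rose and 4 fell without background correction, 6 and 4 with the maximum likelihood model, and 8 and 4 with trend and robust moderation. Estimates near 0 changed sign without passing: SIAH1 ILMN_1711627 was -0.014 with median scaling and ran from -0.013 to 0.083 with 1 array left out (lowest without GFP 1), SIAH2 ran from -0.012 (without SNRK 3) to 0.19, and SUGT1 from -0.064 to 0.028 (above 0 without GFP 1, GFP 2, SNRK 2 or SNRK 3). TBL1XR1 passed only without SNRK 3 (0.35) and was 0.15 without SNRK 1. The cause of these changes was not tested. Signal over background limits what the dim probes of CACYBP, SIAH1, SKP1 and S100A6 can show.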
